A study of Mus musculus with 112 samples.

Results

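Paneth cells of aged mice were compared with Paneth cells of young mice, animal by animal. The samples were all count columns labelled as Paneth cells, with the technical libraries of each animal summed, which gave 24 of the 67 animal-level samples of the series (12 aged and 12 young, from 69 libraries). The other samples are 23 of Lgr5-positive intestinal stem cells (ISCs) and 20 of progenitors. All mice were C57BL/6 and carried the Lgr5-eGFP-IRES-CreERT2 allele, which ties green fluorescent protein (GFP) and a tamoxifen-inducible recombinase to the stem cell gene Lgr5; no treatment is given in the labels for either age. The aged group held 7 males of 23 to 27 months and 5 females of 23 to 24 months, and the young group 6 males and 6 females, all 2 to 3 months old. Cells came from crypts of the proximal part of the small intestine and were sorted as GFP-negative, with high CD24, high side scatter, high Epcam and no 7-AAD uptake. This gate is a description by surface and granularity, so enteroendocrine and tuft cells, which also carry CD24, can fall in it. This Lgr5 reporter is known to be silent in a share of crypts, so GFP-negative cells can include stem cells. The counts of each animal summed to 2.82 to 11.8 M (median 7.11 M), from libraries of 1.08 to 4.20 M. The ISC samples were from 5 males and 6 females of 2 months, 7 males of 24 to 27 months and 5 females of 23 to 24 months. The progenitor samples were from 5 animals of each age and sex, at 2 to 3 months, 23 to 27 months (males) and 23 months (females). The animal of Paneth aged female 3 is labelled 24 months for ISCs and 23 months for Paneth cells and progenitors.

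Paneth cells sit at the base of the small intestinal crypt between the stem cells. They are long-lived secretory cells that release lysozyme, alpha-defensins and lectins from large granules, and they present Wnt, EGF and Notch ligands to the stem cells beside them. Their secretory load rests on the transcription factors Atoh1, Spdef and Xbp1 and on a large endoplasmic reticulum.

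Which genes differ in Paneth cells between old and young mice? Of 11663 genes tested, 8 passed the edgeR quasi-likelihood test at a Benjamini-Hochberg adjusted p below 0.05 (0.0686% of genes). Of these, 7 rose with age (0.06%) and 1 fell (0.00857%). At an unadjusted p below 0.05 there were 797 genes (6.83%), 443 with a positive and 354 with a negative fold change. The median log2 fold change over all genes was 0.01. Levels are TMM-normalised counts per M (CPM), and fold changes are log2, aged over young, each sex weighted equally, with SE. The animals are the replicates (n = 12 aged and 12 young throughout, unless a sex is named). Fits that left out 1 animal called 3 genes (without aged female 1) to 13 genes (without young female 6), and 5 without young female 4. Without the aged males of 26 and 27 months 2 were called, and with technical libraries kept apart 65. That last fit was limma-voom with the animal as a random block. Its within-animal correlation, shared by all genes, was 0.073, so libraries of an animal counted almost as separate replicates.

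RefSeq (GRCm38.p6) gave a promoter window for 5 of the 8 genes. The windows of Ceacam10, which changed most firmly, and Tmed6 are shown. Both genes passed the test and neither window overlapped an annotated exon, which also holds for Syngr1, not shown. Each runs over the 250 bases before the RefSeq start, 5′ to 3′ on the gene's strand, chr7:24776954-24777203 (plus strand) for Ceacam10 and chr8:107065645-107065894 (minus strand) for Tmed6. A total of 4 short motifs were searched on both strands: GAAA followed after any 2 bases by GAAA (the core of interferon response elements), TTCNNNGAA (the site of STAT factors), TATAAA (the TATA box) and CACGTG (the palindromic E-box). Capitals mark a match.
Ceacam10: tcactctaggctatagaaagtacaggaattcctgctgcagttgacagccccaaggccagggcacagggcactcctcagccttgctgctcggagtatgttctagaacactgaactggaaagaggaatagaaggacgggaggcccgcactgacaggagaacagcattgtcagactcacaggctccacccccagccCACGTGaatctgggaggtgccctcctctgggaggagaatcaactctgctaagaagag
Tmed6: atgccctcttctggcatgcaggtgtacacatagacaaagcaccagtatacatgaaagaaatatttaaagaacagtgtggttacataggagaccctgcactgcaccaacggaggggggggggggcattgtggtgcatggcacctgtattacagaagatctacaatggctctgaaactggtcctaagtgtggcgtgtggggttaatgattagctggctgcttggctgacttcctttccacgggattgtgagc
The Ceacam10 window holds CACGTG, 57 to 52 bases before the start, and none of the other motifs. The Tmed6 window holds none of the 4, nor do those of Gm1123, Syngr1 and Pnliprp2. Of all 32851 RefSeq windows of this length, CACGTG stands in 6.02%, TATAAA in 12.4%, TTCNNNGAA in 7.02% and the spaced GAAA pair in 2.98%. Among the 9052 tested genes with a window the shares are 10%, 7.88%, 7.18% and 3.07%. A match describes letters and no binding.

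Ceacam10 (ENSMUSG00000054169, GRCm38 chromosome 7, 24777206 to 24784657), an immunoglobulin-like protein of the carcinoembryonic antigen family, showed the widest separation of the groups. Its lowest, median and highest levels were 5.04, 20.1 and 44.2 CPM in young animals and 62.2, 117 and 211 CPM in aged animals. All 12 aged animals lay above every young animal. The mean moved from 21.8 ± 12.9 to 122 ± 36.9 CPM (SD), a log2 fold change of 2.49 ± 0.26 (edgeR adjusted p = 4.07e-07). In single libraries, before summing, 35 of 35 aged libraries were above the young median and 24 above the highest of 34 young libraries.

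Ly6e (ENSMUSG00000022587, chromosome 15, 74955051 to 74959905) encodes a GPI-anchored surface protein induced by interferon. It ran at 116, 176 and 311 CPM (lowest, median, highest) in young and 290.0, 368 and 457 CPM in aged Paneth cells. In 10 of 12 aged animals it exceeded the young maximum, which was set by a single young female. The means were 186 ± 53.4 and 364.5 ± 44.85 CPM (log2 0.98 ± 0.13, 1.97-fold, edgeR adjusted p = 2.49e-05).

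Tmed6 (ENSMUSG00000031919, chromosome 8, 107061476 to 107065644), a member of the p24 family of cargo receptors between endoplasmic reticulum and Golgi, had levels of 19.2, 47.5 and 97.7 CPM in young and 58.1, 106 and 168 CPM in aged animals. The ranges overlap, and 7 aged animals exceeded the young maximum (log2 0.99 ± 0.20, edgeR adjusted p = 0.0231). Pnliprp2 (ENSMUSG00000025091, chromosome 19, 58759719 to 58777534) encodes a secreted lipase related to pancreatic lipase. It rose from 501, 850.4 and 1458 CPM (lowest, median, highest) to 713, 1479 and 1789 CPM, and 6 aged animals were above every young one (log2 0.70 ± 0.15, edgeR adjusted p = 0.0404). Its call ended in 13 of the 24 fits without a single animal, with an edgeR adjusted p of up to 0.0994, reached without young female 5.

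Syngr1 (ENSMUSG00000022415, chromosome 15, 80091334 to 80119501), a synaptogyrin of vesicle membranes, is a low gene. Young animals held 0.107, 1.025 and 7.445 CPM and aged animals 0.923, 6.70 and 12.4 CPM (lowest, median, highest), with 5 aged animals above the young maximum (log2 2.54 ± 0.51, edgeR adjusted p = 0.0231). Its call was lost in 5 of the 24 fits without 1 animal (highest edgeR adjusted p = 0.0794, without aged female 5). Syngr1, Gm1123 and AI427809 lie outside the rule by which genes were named and are given because the calls are few. Gm1123 (chromosome 9, 99006790 to 99035715) moved from 176.5 ± 46.5 to 310.4 ± 89.05 CPM (log2 0.80 ± 0.15, edgeR adjusted p = 0.0172), and 9 aged animals were above all young ones. AI427809 (chromosome 4, 53261356 to 53270232), annotated as a long intergenic RNA, moved from 2.94 ± 2.50 to 13.7 ± 6.135 CPM (log2 2.19 ± 0.43, edgeR adjusted p = 0.02), also with 9 aged animals above the young maximum.

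Dmbt1 (ENSMUSG00000047517, chromosome 7, 131032053 to 131121630) was the 1 gene that fell. It encodes a large secreted scavenger-receptor glycoprotein that binds bacteria at mucosal surfaces. Levels were 612, 1004 and 1312 CPM in young and 427, 649 and 1068 CPM in aged animals, with 5 aged animals below the young minimum (log2 -0.59 ± 0.11, edgeR adjusted p = 0.0198). The 7 aged males spanned 427 to 652 CPM and the 6 young males 961 to 1275 CPM, so the male groups did not overlap. In females the ranges overlapped, at 698 to 1068 CPM in aged and 612 to 1312 CPM in young animals. A further fit scaled counts by library totals alone, without TMM factors (called totals unscaled below). There the Dmbt1 fold was -0.37 (edgeR adjusted p = 0.415) and the median of all genes was 0.24. Without young female 4 the Dmbt1 fold was -0.52 (edgeR adjusted p = 0.0698).

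**Figure D1:**
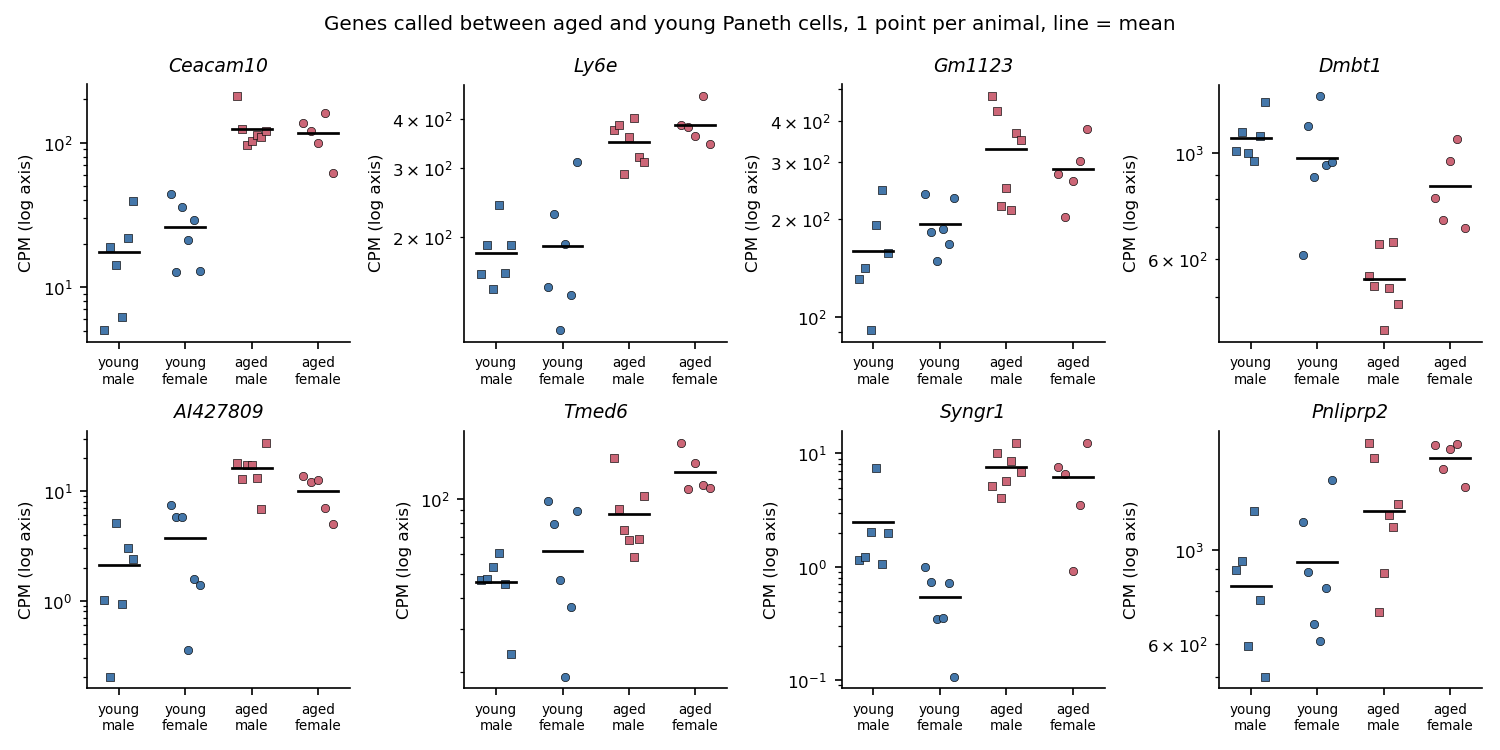
Levels of the 8 called genes in each animal (CPM, log axis), squares for males, circles for females, blue for young, red for aged, with the group mean as a line. For Ceacam10 every aged animal sits above every young animal, from 62.2 CPM upward against at most 44.2 CPM; Dmbt1 is lowest in the aged males.

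The sexes were then tested apart. In males 4 genes were called (0.0343% of those tested): Ceacam10, Dmbt1, Ly6e and Gm1123 (log2 2.81, -0.98, 0.94 and 1.04, highest edgeR adjusted p = 0.032, n = 7 and 6). In females 2 were called (0.0171%), Ceacam10 and Ly6e (log2 2.17 and 1.02, highest edgeR adjusted p = 0.0246, n = 5 and 6). The male minus female difference of the age effect called 0 genes, with 621 at an unadjusted p below 0.05, and DESeq2 and limma-voom also called 0. Dmbt1 differed by -0.78 ± 0.23 between the sexes (edgeR p = 0.00123, adjusted p = 0.809), so a sex difference in its fall did not pass. Ceacam10, Ly6e, Tmed6 and Pnliprp2 had sex differences of 0.64 ± 0.50, -0.09 ± 0.26, -0.14 ± 0.39 and -0.22 ± 0.30.

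**Figure D2:**
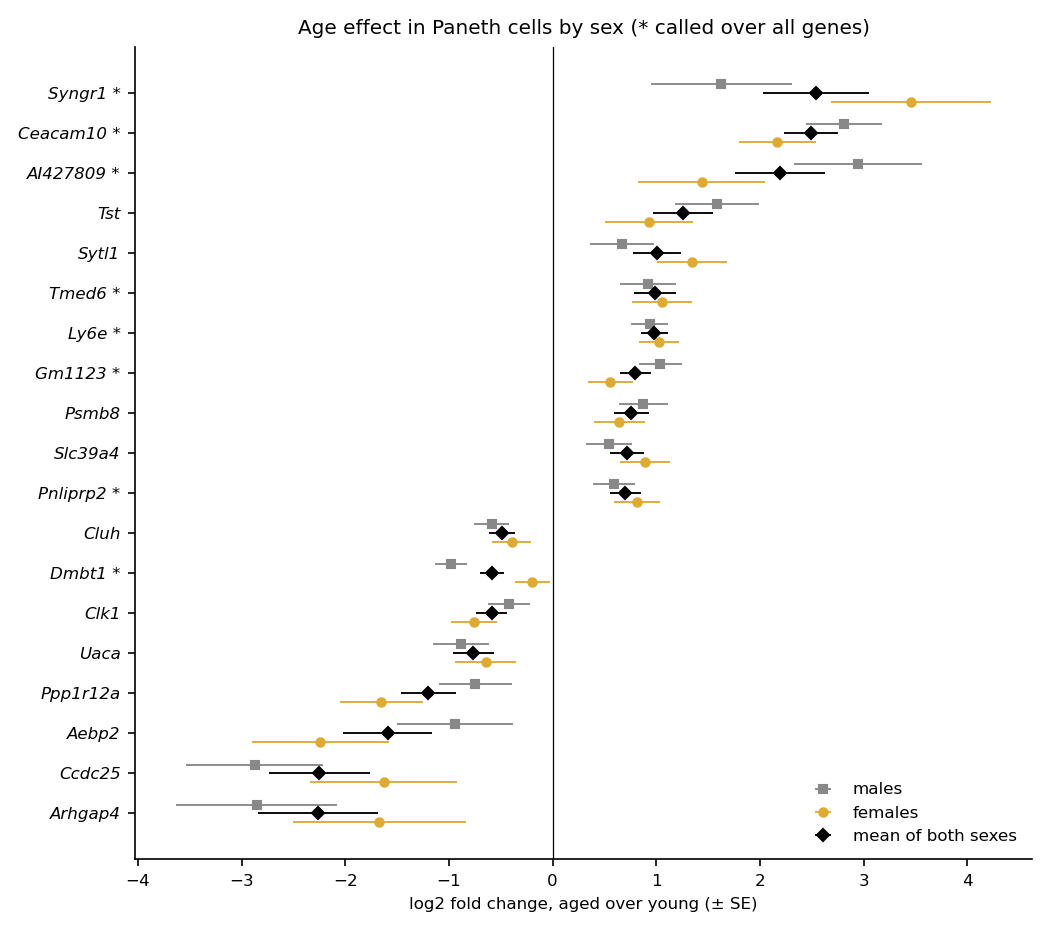
Log2 fold change with age (± SE) for the called genes and those that filled up the named set, in males, females and as the mean of both; asterisks mark the 8 called genes. Ly6e stands near 1 in both sexes, whereas Dmbt1 is at -0.98 in males and -0.19 in females.

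Beyond the called genes, those with the smallest p in each direction are given as values that did not pass. On the positive side, Psmb8, the inducible chymotrypsin-like subunit of the immunoproteasome, was at 105 ± 30.3 CPM in young and 179.5 ± 52.9 CPM in aged animals (log2 0.76 ± 0.17, edgeR adjusted p = 0.0588). Aged animals ranged from 79.7 to 302 CPM with 10 of 12 above the young maximum of 147.5 CPM. Slc39a4, a zinc importer of the plasma membrane, stood at 55.2 ± 12.55 and 89.6 ± 24.5 CPM (0.72 ± 0.16, edgeR adjusted p = 0.0712), also with 10 of 12 above the young maximum. Sytl1, a Rab27-binding protein of granule transport, was at 19.9 ± 7.92 and 39.3 ± 15.5 CPM (1.01 ± 0.23, edgeR adjusted p = 0.0712). Tst, the mitochondrial sulfur-transferase rhodanese, was at 5.88 ± 1.64 and 14.45 ± 4.66 CPM (1.26 ± 0.29, edgeR adjusted p = 0.0792), with 11 aged animals above all young ones.

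On the negative side stood Ccdc25 (9.33 ± 5.53 and 1.87 ± 1.40 CPM, log2 -2.25 ± 0.49, edgeR adjusted p = 0.0513) and Ppp1r12a, the targeting subunit of myosin phosphatase (19.7 ± 7.58 and 9.22 ± 3.25 CPM, -1.20 ± 0.27, edgeR adjusted p = 0.0588). No aged animal reached the young median for either gene. The splicing kinase Clk1, the RNA-binding protein Cluh of mitochondrial messages, Arhgap4, Uaca and the polycomb cofactor Aebp2 had log2 fold changes of -0.59, -0.49, -2.26, -0.76 and -1.59 (edgeR adjusted p from 0.162 to 0.207). Slc28a2, a purine nucleoside transporter chosen after its values were seen, went from 8.28 ± 6.83 to 1.20 ± 1.38 CPM (-2.785 ± 0.62, edgeR adjusted p = 0.0588). Its 12 aged animals were all below the young median and 9 were below the young minimum of 1.61 CPM.

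Did the Paneth programme itself change? The label was first set against its markers. In a joint scaling of all cell types Lyz1, Mmp7 and Itln1 averaged 69840, 4672 and 39770 CPM in the Paneth gate, against 155, 19.4 and 78.5 CPM in ISCs and 313, 141 and 371 CPM in progenitors, so all 3 markers were highest where the label places them. Lyz1, which encodes lysozyme, had levels of 15770, 27280 and 43810 CPM in young and 22170, 38370 and 51540 CPM in aged animals (lowest, median, highest; log2 0.49 ± 0.16, edgeR adjusted p = 0.367). Mmp7, the protease that activates alpha-defensins, had 1158, 1562 and 3526 CPM in young and 991, 2706 and 4348 CPM in aged animals (0.58 ± 0.20, edgeR adjusted p = 0.447). Itln1, an intelectin that binds microbial glycans, had 11510, 16230 and 31000 CPM in young and 9408, 22210 and 28150 CPM in aged animals (0.24 ± 0.15, edgeR adjusted p = 0.824). The age groups overlapped for all 3 genes, and none passed.

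The wider list of granule and antimicrobial products held 34 tested genes of 41 found, of which 1 was called, Pnliprp2, and 24 had a positive fold change (median log2 0.24, against 0.01 over all genes). At an unadjusted p below 0.05 there were 5 members, all positive. They were Pnliprp2, Lyz1, Mmp7, the IgA transporter gene Pigr (0.26 ± 0.09, edgeR adjusted p = 0.46) and the trefoil peptide gene Tff3 (0.35, edgeR adjusted p = 0.673). Tff3 is also among the goblet markers used below. On the joint scale Pigr stood at 2126 CPM in young Paneth cells, 1855 CPM in young ISCs and 2686 CPM in young progenitors. Ang4, an RNase with antimicrobial activity, did not pass (0.37 ± 0.22, edgeR adjusted p = 0.811). The lectins Reg3b and Reg3g had negative folds that did not pass (-0.53 and -0.39, edgeR adjusted p = 0.861 and 0.886). The alpha-defensin genes are near-identical copies, so reads of single members are assigned with uncertainty. In these sorted bulk samples fewer cells of a type and less RNA per cell cannot be told apart.

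Of 25 transcription factors and receptors of the Paneth and secretory lineage none was called, 14 had a positive fold and 11 a negative one (median 0.12). Of these, 7 positive members lay at an unadjusted p below 0.05. Among them were Atoh1, which commits cells to the secretory fate (18.6 ± 7.92 and 32.4 ± 13.3 CPM, log2 0.82 ± 0.25, edgeR adjusted p = 0.316), and Xbp1, which drives the secretory endoplasmic reticulum (163.5 ± 35.9 and 215.3 ± 47.1 CPM, 0.41 ± 0.13, edgeR adjusted p = 0.367). Spdef, a factor of goblet and Paneth maturation, was at 0.67 ± 0.22 (edgeR adjusted p = 0.391), Foxa2 at 1.17 and Bhlha15, a factor of secretory cells, at 0.58 (edgeR adjusted p = 0.412 and 0.433). Tfeb, the lysosomal regulator, was the 1 negative member at that level (-0.98 ± 0.38, edgeR adjusted p = 0.502). Genes of the unfolded protein response were split, 17 positive and 16 negative of 33 (median 0.01, none called).

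Signals to the stem cell niche also stayed below the threshold. None of the 15 tested niche genes of 31 on the list was called, and 12 had a positive fold (median 0.41), with 3 positive and 2 negative members at an unadjusted p below 0.05. Wnt3, the Wnt ligand of Paneth cells, had 13.9, 41.1 and 58.3 CPM in young and 18.6, 57.1 and 77.9 CPM in aged animals (0.62 ± 0.21, edgeR adjusted p = 0.422). Its 5 aged females spanned 63.7 to 77.9 CPM, above all 6 young females at 20.6 to 48.0 CPM, while in males the ranges overlapped. The female effect was 0.88 ± 0.31 and did not pass (edgeR adjusted p = 0.792). The male minus female difference for Wnt3 was -0.52 ± 0.43 and also missed the threshold (edgeR p = 0.23, adjusted p = 0.962). Notum, a secreted enzyme that inactivates Wnt proteins, was close to its counting floor, with 0, 0.072 and 1.75 CPM in young and 0, 1.37 and 11.6 CPM in aged animals (2.49 ± 0.86, edgeR adjusted p = 0.422), and 5 aged animals exceeded the young maximum. Bst1, which makes cyclic ADP-ribose, averaged 0.870 ± 1.05 and 4.855 ± 5.515 CPM (2.32 ± 0.78, edgeR adjusted p = 0.414). The ligands Egf (0.18 ± 0.48) and Dll4 (0.66 ± 0.44) and the Notch ligand Dll1 (0.09) did not pass (edgeR adjusted p = 0.982, 0.835 and 0.985). The negative members at that level were the growth factor receptor gene Fgfr3 (16.05 ± 8.94 and 10.9 ± 7.06 CPM, -0.68 ± 0.32) and the Notch ligand gene Jag2 (2.96 ± 4.38 and 0.812 ± 1.29 CPM, -1.95 ± 0.93), and neither passed (edgeR adjusted p = 0.703 and 0.706). Of 14 Notch pathway genes 6 and of 18 Wnt targets 12 were positive (medians -0.09 and 0.11), with none called. The Notch median turned to 0.12 when counts were scaled by library totals alone, without TMM factors.

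**Figure D3:**
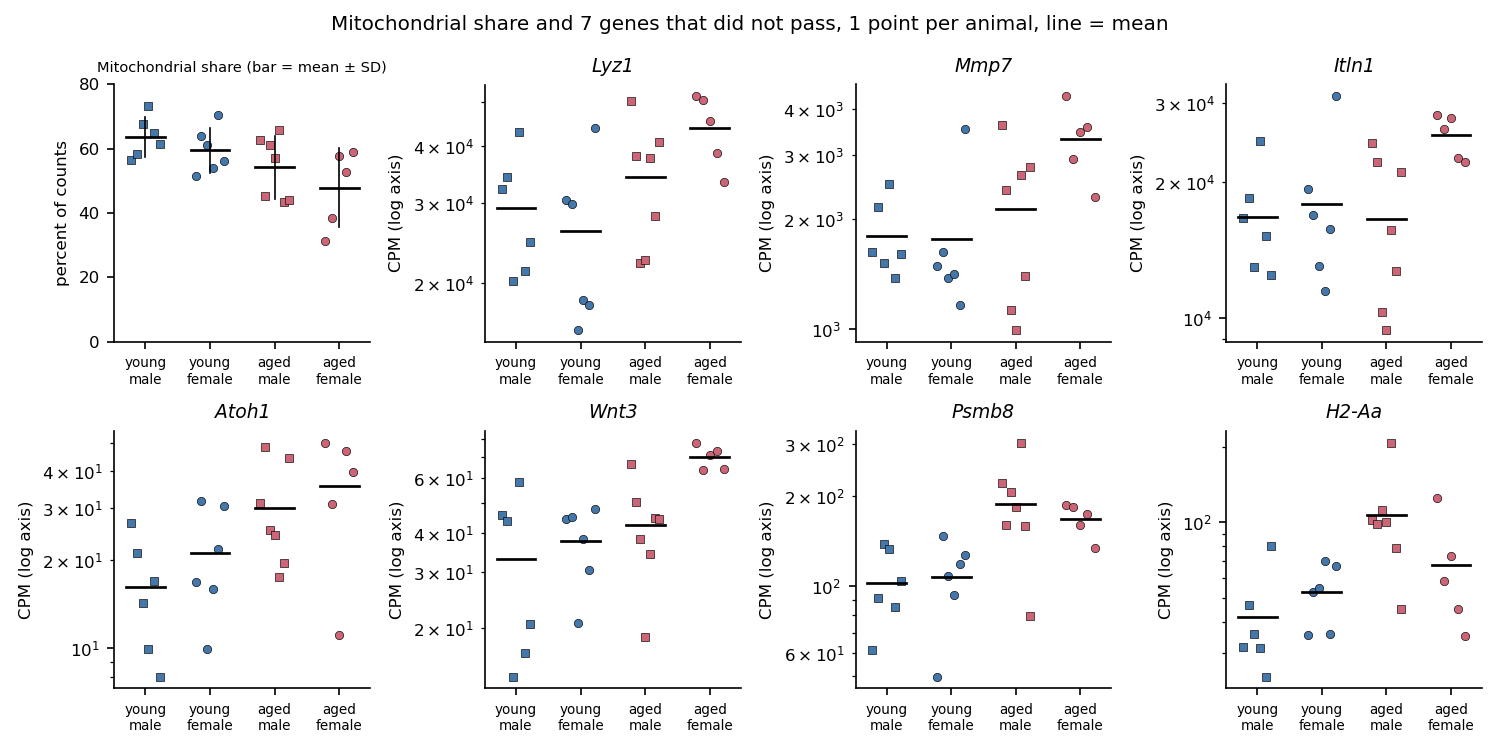
Mitochondrial share of counts (linear axis, mean ± SD) and levels of Lyz1, Mmp7, Itln1, Atoh1, Wnt3, Psmb8 and H2-Aa (CPM, log axis, line at the mean) in each animal; none of the 7 genes passed. The share averages 61.65% in young and 51.6% in aged animals, and the aged females have the highest group mean for Wnt3.

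MHC class II genes encode the machinery that loads peptides for CD4 T cells. Of 12 listed, 9 were tested, 7 were positive (median 0.44) and 0 called, with 5 at an unadjusted p below 0.05. H2-Aa had 24.2, 41.2 and 80.3 CPM in young and 35.3, 88.8 and 207 CPM in aged animals (0.85 ± 0.21, edgeR adjusted p = 0.162). H2-Ab1 had 88.0, 200 and 268 CPM in young and 131, 302 and 626 CPM in aged animals (0.65 ± 0.18, edgeR adjusted p = 0.207), and 7 aged animals exceeded the young maximum. Males and females differed by 0.99 ± 0.43 for H2-Aa and 0.77 ± 0.35 for H2-Ab1 (edgeR p = 0.0273 and 0.0362, adjusted p = 0.918 and 0.922), so neither sex difference passed. The invariant chain gene Cd74 was at 93.5 ± 26.3 and 118 ± 38.8 CPM (0.29 ± 0.16, edgeR adjusted p = 0.786), and the class II activator Ciita at 0.33 (edgeR adjusted p = 0.961).

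MHC class I and immunoproteasome genes serve the display of peptides from the cell's own proteins. Of 24 tested, 16 were positive (median 0.27) and none was called, with 6 at an unadjusted p below 0.05. All 6 were positive, Psmb8 and Psmb9 of the immunoproteasome (0.76 and 0.86), the heavy chains H2-D1, H2-K1 and H2-Q7 (0.62, 0.43 and 1.14) and the light chain B2m (0.44), with edgeR adjusted p from 0.0588 to 0.586. H2-Q7 belongs to a family of near-identical copies. Of 38 interferon-stimulated genes only Ly6e was called, 19 were positive and 19 negative (median 0.02). The immune marker sum was highest in aged male 5 (991 CPM, 404.5 of it the mast cell protease gene Mcpt1 and 267 Mcpt2), against 231 CPM in the next animal. That animal also had the highest levels of H2-Aa, H2-Ab1, Cd74 and Psmb8. Without it, in a fit added after seeing the data, the log2 fold changes were 0.73, 0.55, 0.22 and 0.68 (edgeR adjusted p = 0.215, 0.257, 0.822 and 0.0926). The class II list then had a median of 0.33 and 4 members at an unadjusted p below 0.05, and the class I list a median of 0.29 and 5 members. Over all genes 9 were called without it. Over all animals the immune sum had medians of 111 CPM in young and 104.5 CPM in aged animals. The tested quantity was the sex-weighted difference of mean log2 sums, which was positive at 0.29 (permutation test p = 0.473). Of 17 tested members 12 were positive (median 0.36) and none was called. Without aged male 5, 15 members were tested, of which 8 were positive (median 0.03) and none was called. Cd3e and Cd79a were at 0 in at least 10 of 12 animals of each age, Csf1r of macrophages was at 0 in 1 of 12 and the antibody gene Igha in none. Jchain, of plasma cells, averaged 0.596 ± 0.929 CPM in young and 2.55 ± 2.58 CPM in aged animals, with 5 aged animals above the young maximum (1.79 ± 0.99, edgeR adjusted p = 0.781).

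**Figure D4:**
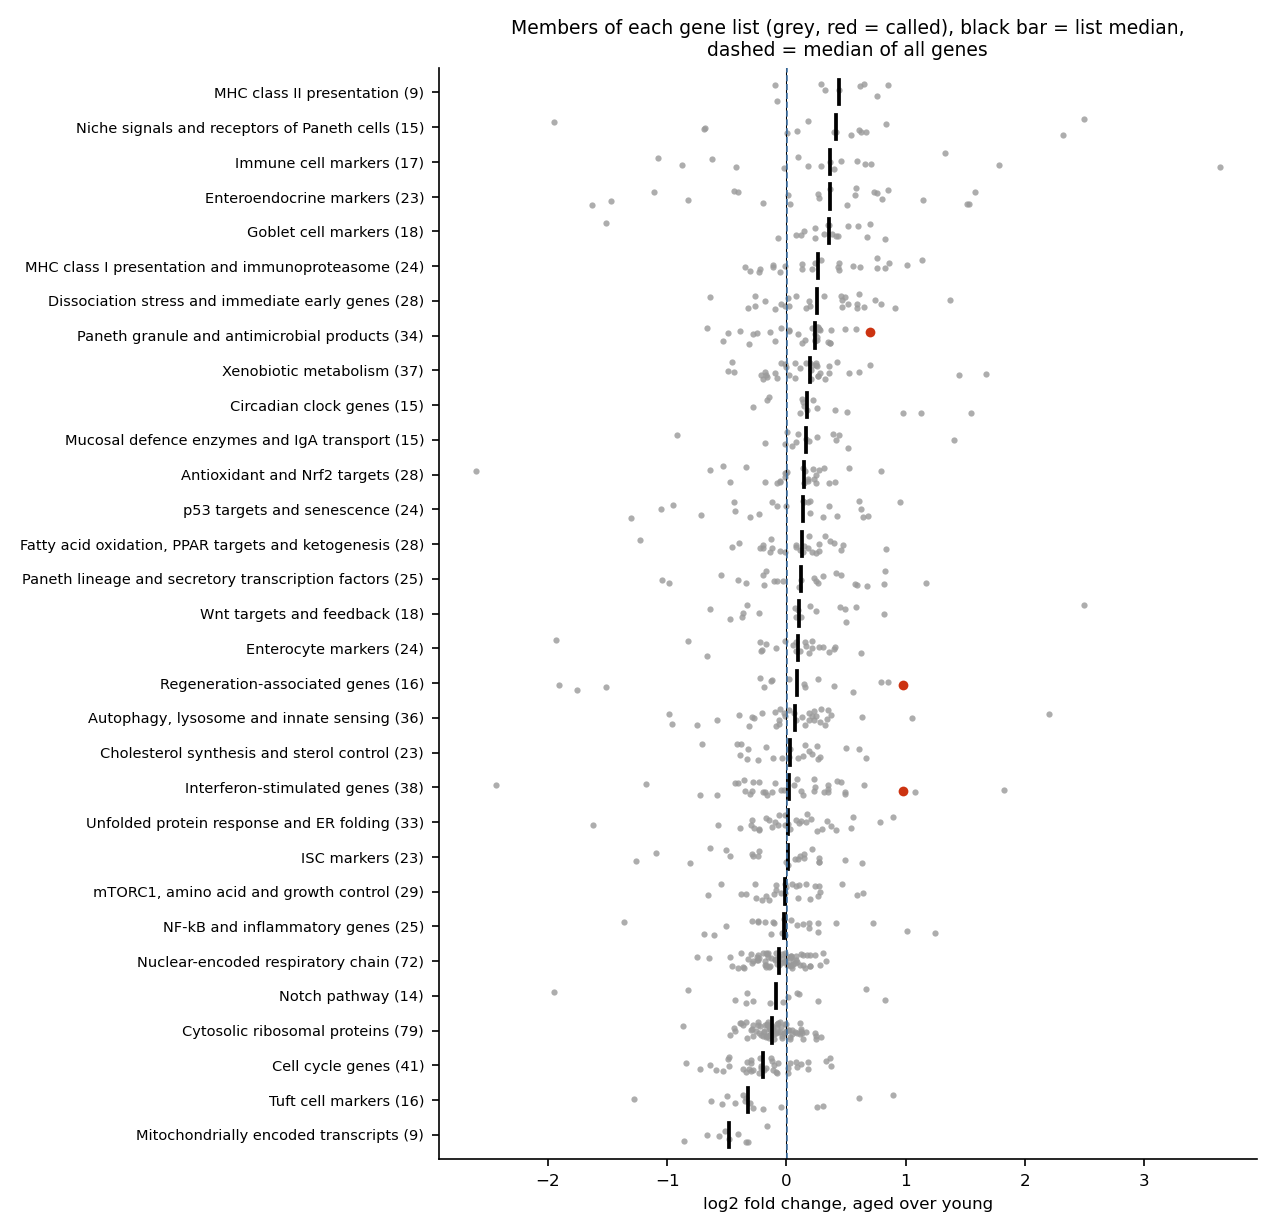
Log2 fold change with age of every tested member of the lists with at least 9 tested genes (grey points, red where called), each list's median as a black bar and the median of all genes as a dashed line; the number tested stands in brackets. MHC class II genes have the highest median (0.44) and mitochondrially encoded transcripts the lowest (-0.48).

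Transcripts of the mitochondrial genome took a smaller share of the Paneth counts in aged animals. The share was 51.4, 61.35 and 73.4% (lowest, median, highest) in young and 31.4, 55.0 and 65.8% in aged animals, so the groups overlapped. Weighted by sex, the difference was -10.5 points (two-sided permutation of age within sex, p = 0.00874). All 9 tested mitochondrially encoded genes had negative folds (median -0.48), 4 at an unadjusted p below 0.05 and 0 called, with mt-Cytb at -0.52 ± 0.17 (edgeR adjusted p = 0.412). Counts of nuclear genes had a median of 3.88 M in aged and 2.68 M in young animals. With the share added as a covariate 3 genes were called, of which Ceacam10 and Ly6e were among the 8 and Psmb8 was not (log2 1.05, edgeR adjusted p = 0.011). The part of this share in the other age differences was not tested further.

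Nuclear genes of the respiratory chain were positive in 28 of 72 cases (median -0.06, 0 called), with Cox6b1 at -0.47 and Ndufb3 at -0.75 (edgeR adjusted p = 0.447 and 0.461). Cytosolic ribosomal protein genes were positive in 19 of 79 (median -0.12, 0 called), with Rpl22 at -0.43 ± 0.13 and Rplp2 at -0.38 ± 0.14 (edgeR adjusted p = 0.283 and 0.438). Cell cycle genes were positive in 11 of 41 (median -0.20, 0 called), with Cdk1 at -0.72 and Top2a at -0.48 (edgeR adjusted p = 0.422 and 0.447). With counts scaled by library totals alone, without TMM factors, the median of all genes became 0.24. The medians of these 3 lists turned to 0.17, 0.12 and 0.02 in that fit, so their sign holds only relative to the typical gene. Mitochondrially encoded transcripts stayed negative (-0.27) there.

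Further lists gave few or no members past the threshold. Immediate early and dissociation genes were positive in 20 of 28 (median 0.26, 0 called), with Fos at 0.74 ± 0.22 and Fosb at 1.37 ± 0.51 (edgeR adjusted p = 0.275 and 0.46). Genes of mucosal defence enzymes were positive in 12 of 15 (median 0.16) and circadian genes in 12 of 15 (median 0.17), none called. Autophagy and innate sensing (20 of 36 positive, median 0.07), mTORC1 and growth control (13 of 29, -0.01), NF-kB genes (11 of 25, -0.02) and p53 targets (13 of 24, 0.14) had none called; with unscaled totals the mTORC1 and NF-kB medians turned to 0.23 and 0.14. So had fatty acid oxidation (17 of 28, 0.13), cholesterol synthesis (13 of 23, 0.03), antioxidant genes (16 of 28, 0.14) and xenobiotic metabolism (24 of 37, 0.20). Regeneration-associated genes had Ly6e as the 1 called of 16 (9 positive, median 0.09).

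Other cell types that the gate can hold were followed by their markers. Enteroendocrine markers summed to 104, 830 and 2439 CPM in young and 124, 1236 and 1968 CPM in aged animals (lowest, median, highest). Tuft markers summed to 416, 706 and 1471 CPM in young and 506, 674 and 1203 CPM in aged animals, with Dclk1 at 25.8 ± 19.8 and 19.6 ± 8.04 CPM. Goblet markers summed to 2823, 4095 and 6094 CPM in young and 2870, 4723 and 7908 CPM in aged animals, enterocyte markers to 1257, 1610 and 2342 CPM and to 1169, 1475 and 3449 CPM. Of the tested members, 16 of 23 enteroendocrine, 16 of 18 goblet and 4 of 16 tuft genes had positive folds (medians 0.36, 0.36 and -0.32), with none called. At an unadjusted p below 0.05 there were 3 enteroendocrine, 5 goblet and 1 tuft member, all positive, against 6.83% of all genes in either direction. The goblet list shares Atoh1, Spdef and Tff3 with the Paneth lists given above. ISC markers summed to 950, 1538 and 2731 CPM in young and 1143, 1636 and 2909 CPM in aged animals. Of 23 tested, 12 had positive and 11 negative folds (median 0.01), with 0 called. Among them Olfm4 averaged 1053 ± 335 and 1215 ± 440 CPM, and Lgr5 22.5 ± 9.40 and 14.85 ± 9.01 CPM (-0.64 ± 0.31, edgeR adjusted p = 0.722). Stromal and endothelial markers were low, with sums of 0.680, 9.49 and 39.2 CPM in young and 6.55, 24.85 and 66.8 CPM in aged animals. Lum was at 0 in all 24. Their log2 difference of 0.98 was the widest of the marker sums and did not pass (permutation test p = 0.072, adjusted permutation p = 0.298). None of the 10 marker sums passed a test for age (lowest adjusted permutation p = 0.298). The Paneth sum of Lyz1, Mmp7 and Itln1 differed by 0.43 on the log2 scale (permutation test p = 0.0361, adjusted permutation p = 0.298). The part of these other cells in the age differences was not tested.

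How far does the age effect of Paneth cells differ from that of the other crypt cells? Of the 36 animals, with Paneth aged male 6 counted as its own, 15 gave 2 cell types and 8 gave all 3. The label of that male is the name of an animal that gave ISCs and progenitors, with the suffix 2nd. Their relation is not stated in the labels. With animals shared, the samples of different cell types are not independent. A joint fit that treats them as independent, over 67 samples and 13287 genes, called 5 genes for the difference from ISCs (0.0376%) and 0 for the difference from progenitors (0%, with 966 genes at an unadjusted p below 0.05, and 0 by limma-voom). Ly6e rose less in Paneth cells (1.01 ± 0.10) than in ISCs (1.70 ± 0.11), a difference of -0.70 ± 0.15 (edgeR adjusted p = 0.0288). Dmbt1 was at -0.56 ± 0.12 in Paneth cells and 0.31 ± 0.12 in ISCs, a difference of -0.87 ± 0.17 (edgeR adjusted p = 0.0237). The Dmbt1 age effect within ISCs did not itself pass (edgeR adjusted p = 0.6). The other 3 genes, named because the calls are few, were Pdia2, Tmem68 and Lzts1 (differences of -5.36, -2.03 and 7.82, highest edgeR adjusted p = 0.0329), and Lzts1 averaged at most 2.99 CPM in any group. Pdia2 averaged 42.0 and 12.05 CPM in young and aged Paneth cells. In young and aged ISCs it was near the counting floor, at 0.221 ± 0.319 and 1.51 ± 2.25 CPM. In the fit of Paneth cells alone Pdia2, Tmem68 and Lzts1 had age effects of -2.06, -1.80 and 3.16 that did not pass (edgeR adjusted p = 0.236, 0.271 and 0.422). The joint fit uses 1 estimate of the spread per gene for all cell types, and it called 346 genes for age in Paneth cells where the fit of Paneth cells alone called 8. With the animal as a random block in limma-voom, Lzts1 did not pass (3.27, adjusted p = 0.227) and the other 4 did. With the variance allowed to differ by cell type, an alternative added after seeing the data, none of the 5 differences passed (limma adjusted p from 0.102 to 0.588).

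Ceacam10 had age effects of 2.51 ± 0.26 in Paneth cells, 2.13 ± 0.26 in ISCs and 1.51 ± 0.28 in progenitors. The difference was 0.38 ± 0.36 from ISCs and 1.00 ± 0.37 from progenitors (edgeR adjusted p = 0.842 and 0.462). Tmed6 was at 1.015 ± 0.23, 1.10 ± 0.25 and 1.06 ± 0.28 in Paneth cells, ISCs and progenitors, with differences of -0.09 ± 0.33 and -0.05 ± 0.34. Its level was higher in Paneth cells, at 113 CPM in young Paneth cells against 11.2 CPM in young ISCs and 5.95 CPM in young progenitors, on the joint scale. Pnliprp2 was at 1839 CPM in young Paneth cells against 8.41 and 9.20 CPM in young ISCs and progenitors, and its age effect did not pass in this joint fit (0.73 ± 0.31, edgeR adjusted p = 0.19). Psmb8 had estimates of 0.79 ± 0.16, 0.73 ± 0.17 and 0.77 ± 0.18, with differences of 0.06 ± 0.23 and 0.02 ± 0.24.

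**Figure D5:**
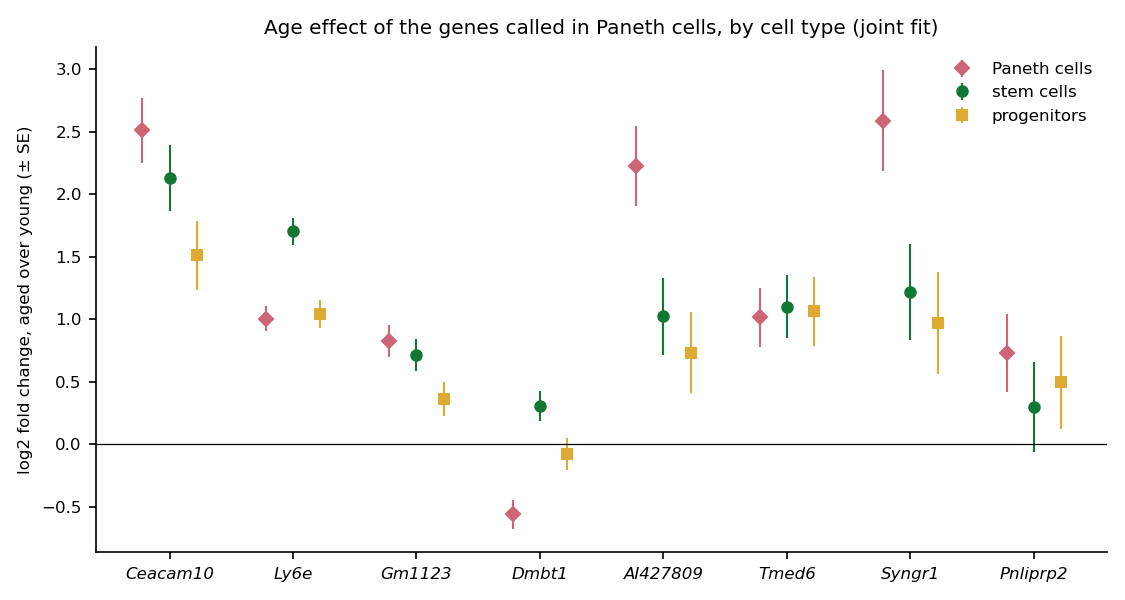
Age effect (log2 fold change ± SE, joint fit) of the 8 genes called in Paneth cells, in Paneth cells, ISCs and progenitors. Ly6e is lower in Paneth cells (1.01) than in ISCs (1.70), and Dmbt1 is negative in Paneth cells (-0.56) and positive in ISCs (0.31). The Dmbt1 effect in ISCs did not pass (edgeR adjusted p = 0.6).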

How the data were processed

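Bulk 3′ RNA-seq (SC3-seq) libraries were made from 1 ng of total RNA of sorted cells, per the labels' protocols. The deposited values are raw read counts for 32285 genes. The submitters' processing notes name cutadapt 3.0, STAR 2.7.9a, HTSeq 0.13.5, DESeq2 1.30.1 and the build mm10; for the annotation release and strand setting of the counting, nothing is stated in the labels. Technical libraries of each animal were summed, and 11663 genes passed filterByExpr (minimum count 10). edgeR 4.0.16 in R 4.3.3 (TMM, robust quasi-likelihood F test) was fitted to 4 groups of age by sex, with the age effect as the mean of both sexes and Benjamini-Hochberg adjustment over all genes. Differences between cell types came from 1 fit of all 67 samples. Marker sums and the mitochondrial share were tested by 100000 two-sided permutations of age within sex. Alternatives used DESeq2 1.42.0, limma 3.58.1, other scalings, filters and sample sets. The scripts were tested on simulated data. Gene coordinates are from GENCODE M21 (GRCm38).

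The genes named were called genes with a mean of at least 5 CPM and the same sign in both sexes, those of smallest p that filled up 8 in each direction, called list members or else the 2 of smallest p in a list, and 12 genes always given (Lyz1, Mmp7, Itln1, Ang4, Wnt3, Egf, Dll4, Notum, Bst1, Ly6e, Cd74, Lgr5). Unnamed gene models were passed over by this rule. Other list members and marker genes given were chosen after their values were seen. The members and lists were chosen with earlier results of these data known. Levels at 3′ ends depend on the annotated 3′ end, and reads of overlapping or near-identical genes cannot be told apart.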

Additional observations from a re-analysis of the deposited data

Results flagged for a closer look

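A total of 120 groups of animals (30 measures in 4 groups of age and sex) were screened by Dixon's criterion for an animal far from the others, and 7 such values were found in 6 animals, where chance gives about 1 in 20 groups. Ceacam10 was highest in aged male 1, at 210.6 CPM against 125 CPM in the next aged male. Mmp7 stood at 3526 CPM in young female 6, where the next young female had 1624 CPM. Syngr1 reached 7.445 CPM in young male 4, against 2.04 CPM in the next young male. Tmed6 was lowest in young male 6, at 23.8 CPM, with the next young male at 45.4 CPM. Enterocyte markers summed to 2463 CPM in aged female 3, against 1345 CPM in the next aged female. Aged male 5 had the lowest enteroendocrine sum of the aged males (199.4 CPM, next 826 CPM) and the highest immune sum (991 CPM, next 171 CPM).

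The test of the difference itself separated the age effect of Paneth cells from that of ISCs for 5 genes in the joint fit, on the log2 scale by -0.70 for Ly6e, -0.87 for Dmbt1, -5.36 for Pdia2, -2.03 for Tmem68 and 7.82 for Lzts1. Pdia2 was near the counting floor in ISCs, and Lzts1 in every cell type. None of the 5 passed when the variance was allowed to differ by cell type.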

How the results depend on the processing

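The age effect of 8 called genes became 22 with totals unscaled (20 higher, 2 lower), 29 with DESeq2 (17 higher, 12 lower), 14 with limma-voom and 65 with technical libraries kept apart in limma-voom. In the fit with 65, libraries of an animal counted almost as separate replicates. The count became 3 with the mitochondrial percentage as a covariate and 2 without the animals of 26 and 27 months. The other 7 alternatives gave 8 to 12. Leaving out 1 animal gave 3 to 13 genes, 2 to 6 in males and 0 to 2 in females. The 4 genes in males became 32 with DESeq2, 8 with limma-voom and 2 without the oldest animals, and the 2 in females became 4 with DESeq2 and 1 with totals unscaled, with no filter or with the replicate block. The 5 differences from ISCs became 1 with the replicate block, 7 in limma-voom with the animal as a random block and 0 with the variance by cell type. No called gene changed direction. The medians of 6 lists changed sign with totals unscaled, as given with those lists. The enterocyte and tuft marker sums, which did not pass, reached -0.03 and -0.05 on the log2 scale when 1 animal was left out.

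Ceacam10 and Ly6e passed in all 13 alternatives and all 24 fits without 1 animal. Of the 13 alternatives, the call ended in 6 for Pnliprp2, 4 for Syngr1, 4 for Dmbt1, 3 for AI427809 and 2 each for Tmed6 and Gm1123. Without aged female 1 the edgeR adjusted p was 0.0742 for Tmed6 and 0.0587 for AI427809. Of the genes not called, Psmb8 passed in 7 of the 13, Sytl1 and Ccdc25 in 5, Slc39a4, Tst and Arhgap4 in 3, Cluh in 2, and Ppp1r12a, Clk1 and Uaca in 1. So did Lyz1, Mmp7, Atoh1, Xbp1, Wnt3, Pigr, P4hb, Perp, Rpl22, H2-Aa, H2-Ab1 and H2-D1 in at least 1. The cause was not tested. Replicate numbers did not pair the samples: same-numbered aged and young animals had a median correlation of 0.0121 over 11 pairs, none over 0.1, and the replicate block gave 11 genes. The mitochondrial share differed by -11.9 to -8.47 points without 1 animal, and by -9.14 points without the oldest animals (permutation p = 0.0251). Depth limits low genes such as Syngr1, at 0 in 14 of 34 young libraries.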
